A study of Mus musculus with 6 samples.

Results

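Neutrophils enter inflamed or tumour-bearing skin along gradients of ELR-type CXC chemokines. In the mouse these include the products of Cxcl1, Cxcl2 and Cxcl5, which act through the receptor CXCR2. The receptor for granulocyte colony-stimulating factor, encoded by Csf3r, drives the production and survival of neutrophils, and TREM-1 amplifies their inflammatory response. Once in tissue, they use an oxidase that generates reactive oxygen and release proteins that bind metals, among them calprotectin, of which S100A8 is a subunit, and lipocalin-2. Keratinocytes, macrophages and fibroblasts can also express several of these genes, so none of them alone marks a neutrophil in a whole tumour.

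The 9 genes described here are Cxcl1, Cxcl2, Cxcl5, Cxcr2, Csf3r, Trem1, S100a8, Lcn2 and Ncf4, out of 770 genes measured. They were chosen by name from the raw count table, with the fold changes between treated and control tumours already known. Those fold changes are therefore given as a description and carry no test of their own. Tumours came from a genetically engineered mouse model of melanoma that carries an activated Braf allele, and were started in both groups by painting 4-hydroxy-tamoxifen on shaved back skin at 10 weeks of age. One group, 4'-BR, received 4′-bromo-resveratrol, a brominated analogue of resveratrol, by intraperitoneal injection at 30 mg/kg on 3 days a week for 5 weeks. The other, Control, was not given it, and the sources used here give neither what it received instead nor the promoter that drives the tamoxifen-induced recombination. Each group had 3 samples. RNA was counted with NanoString's nCounter system and its mouse PanCancer Immune panel, a method that counts barcoded probes on single RNA molecules without amplification.

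Total counts ran from 322485 to 472402 in Control samples and from 118221 to 254862 in 4'-BR samples, a full separation of the groups (p = 0.1 by a two-sided exact permutation test, which cannot give less with 3 against 3 samples). Levels below are counts scaled to the geometric mean of the 20 housekeeping probes. A floor was set for each sample at the mean plus 2 SD of its 8 negative probes, and lay at 7.78 to 9.30 scaled counts in Control samples and at 6.68, 9.45 and 18.5 in 4'-BR 1, 2 and 3. Control 2 had all 9 genes above its floor, Control 1 and Control 3 had 8 each, and 4'-BR 1, 2 and 3 had 7, 5 and 3. The number of detectable members thus ran with the depth of the sample, which also separated the groups. Over all 770 genes, 604, 629 and 626 were above the floor in Control 1, 2 and 3. In 4'-BR 1, 2 and 3 it was 651, 621 and 536, so over the panel detection did not run with depth in the same way. The part of depth in the results for the weaker genes was not tested. All 9 genes passed the count minimum of a mean of 20 raw counts over the 6 samples, but 6 of them (all but S100a8, Lcn2 and Ncf4) had a mean under 20 in the 4'-BR samples and passed through the Control counts. Because whole tumours were measured, fewer cells of a type and less RNA per cell cannot be told apart.

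The 9 genes differed in where Control 2 stood among the Control samples. Control 2 was the highest of the 3 for 7 of them, where 50.4% of the 548 genes tested were highest in that sample, and the lowest for S100a8 and Lcn2, where 18.8% of genes were lowest. Among the Control samples the highest level sat in Control 2 for every ligand and receptor gene and for Ncf4. These 7 genes were not alike in the other Control samples, with Cxcl2 and Trem1 lowest in Control 3 and the rest lowest in Control 1. In the comparison of 4'-BR with Control all 9 log2 fold changes were below 0, Cxcl1 by less than 0.01, where 52.7% of all genes tested were below 0 (median −1.19, against −0.04 over all genes tested). S100a8 and Cxcl2 were past an adjusted p of 0.05 in edgeR's quasi-likelihood test, 2 of 9 beside 6.93% of all genes tested, a share from which nothing is read because this contrast chose the genes. Neither was past it when Control 1 or any single 4'-BR sample was left out. Each of those fits called only 0 or 1 of all 548 genes tested, so this loss is not particular to the 2 genes.

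**Figure D1:**
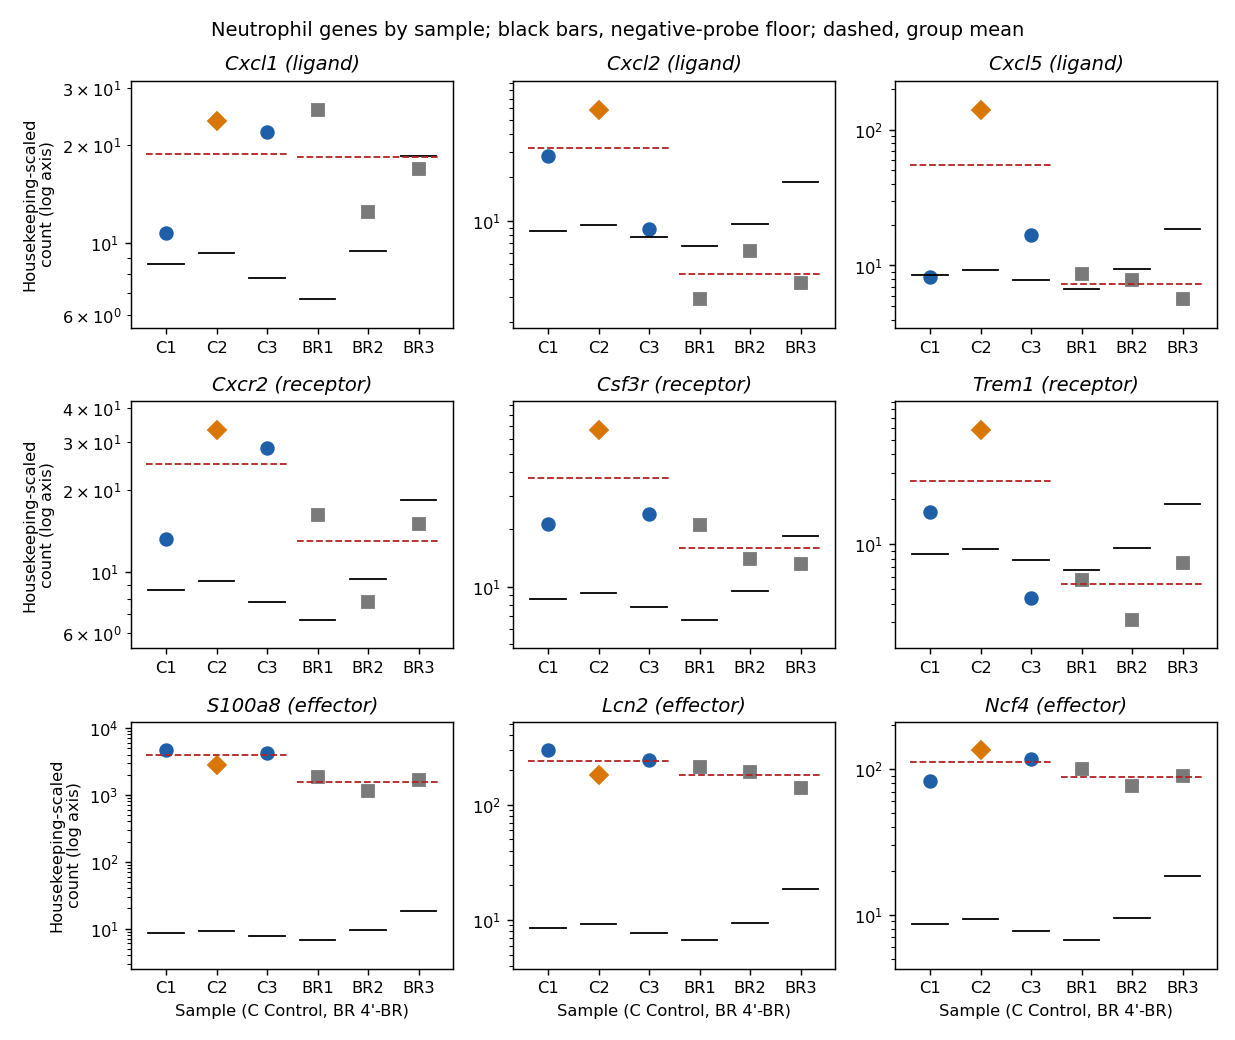
Housekeeping-scaled counts of the 9 genes (log axis, one panel per gene) in Control 1 to 3 (C1 to C3) and 4'-BR 1 to 3 (BR1 to BR3), with the group mean dashed and the floor of each sample as a black bar. Control 2 (orange diamond) is the highest Control sample in 7 panels and the lowest for S100a8 and Lcn2, and no 4'-BR sample is above its floor for Cxcl2 or Trem1.

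Cxcl1, Cxcl2 and Cxcl5 lie in one cluster of chemokine genes on chromosome 5, with Cxcl1 and Cxcl2 next to each other and Ppbp, Pf4, Cxcl3 and Cxcl15 between them and Cxcl5 in the RefSeq gene order of assembly GRCm38.p6. The promoters of Cxcl1 and Cxcl2 are shown because both genes carry the same match to the binding motif of NF-κB, a transcription factor of inflammatory signalling, while their patterns over these samples differed. The 10 letters were taken from the match in Cxcl1 itself. Each sequence is the 100 bases just before the annotated start on the plus strand, from RefSeq, GRCm38.p6, with the motif GGGAATTTCC in capitals. The Cxcl1 bases lie at chr5:90891145-90891244 and those of Cxcl2 at chr5:90903799-90903898.
Cxcl1: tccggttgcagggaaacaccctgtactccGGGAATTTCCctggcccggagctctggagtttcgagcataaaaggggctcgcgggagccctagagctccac
Cxcl2: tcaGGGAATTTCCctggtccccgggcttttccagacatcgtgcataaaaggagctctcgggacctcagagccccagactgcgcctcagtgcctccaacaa
The motif begins 71 bases before the start in Cxcl1 and 97 bases before it in Cxcl2. The best local alignment of the pair covers 76 columns, of which 58 (76.3%) are identical. Searched on both strands in windows of 300 bases (250 before to 50 after the start), GGGAATTTCC was found in 29 of 32851 RefSeq promoters (0.0883%) and in 8 of the 566 panel genes that have a promoter there. The wider NF-κB consensus was matched in 8.46% of promoters, in 15.7% of these panel genes and in 3 of the 7 members with a promoter, Cxcl1, Cxcl2 and Csf3r. The 8 panel genes with the exact letters include Cxcl3 and Nfkbia, an inhibitor of NF-κB. The promoter table held 7 of the 9 members, not Cxcl5 or Ncf4, and the exact letters were not in the windows of Cxcr2, Csf3r, Trem1, S100a8 and Lcn2. The match is a description of the sequence and says nothing of binding in these tumours.

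Cxcl1 did not follow the other ligand genes. It stood at 10.7, 23.8 and 21.9 scaled counts in Control 1, 2 and 3 and at 25.8, 12.4 and 16.9 in 4'-BR 1, 2 and 3 (18.8 ± 7.07 and 18.4 ± 6.81, mean ± SD, n = 3 each). The groups overlapped throughout, and the highest sample was a treated one. Only 4'-BR 3 was under its floor. Its log2 fold change was −0.00 (SE 0.41), and it was 0.21 (SE 0.45) without Control 2. Its sign turned with the scaling, from −0.61 with positive controls to 0.16 with total count.

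Cxcl2 encodes a chemokine made by macrophages and neutrophils as well as by epithelium. It stood at 28.0, 58.9 and 8.78 in Control 1, 2 and 3 and at 2.87, 6.22 and 3.75 in the 4'-BR samples. The Control samples spanned a wide range, but the lowest of them was still above every treated sample. The treated values rest on 3, 4 and 2 raw counts, where the negative probes of the same samples averaged 3.63, 3.75 and 4. The exact 95% Poisson interval of the count of 2 in 4'-BR 3 runs from 0.24 to 7.22. Intervals of this kind cover counting error only. The means were 31.9 ± 25.3 and 4.28 ± 1.74 (log2 fold change −2.94, SE 0.76). With no treated sample above its floor, the size of this difference is only loosely set. Without Control 2 it was −2.11 (SE 0.64) and not past the threshold.

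Cxcl5, whose product is a CXCR2 ligand made largely by epithelial and stromal cells, was set almost wholly by one sample. It had 236 raw counts in Control 2 against 10 and 23 in Control 1 and 3, which is 140 scaled counts against 8.25 and 16.8. The treated samples stood at 8.60, 7.78 and 5.63. Control 1, 4'-BR 2 and 4'-BR 3 were under their floors. Control 1 lay just below 4'-BR 1, so the groups overlapped through values near the floor. The means were 55.1 ± 73.9 and 7.33 ± 1.54, with an SD above the mean in the Control group. The log2 fold change was −2.88 (SE 1.03), and −0.73 (SE 0.48) without Control 2. Within samples, counts of Cxcl5 over Cxcl1 were 0.77 in Control 1 and in Control 3 and 5.90 in Control 2, a ratio that no scaling alters.

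Of the receptor genes, Cxcr2, which encodes the shared receptor of these ligands, had the smallest excess in Control 2. It stood at 13.2, 33.3 and 28.5 in Control 1, 2 and 3, against 16.2, 7.78 and 15 in the 4'-BR samples (25.01 ± 10.5 and 13.01 ± 4.57). Control 1 lay within the treated range, while Control 2 and Control 3 were above all treated samples. Among the treated samples, 4'-BR 2 and 4'-BR 3 were under their floors. The log2 fold change was −0.93 (SE 0.43), and −0.66 (SE 0.46) without Control 2.

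Csf3r was about 3 times as high in Control 2 as in the others, at 21.4, 66.6 and 24.1 in Control 1, 2 and 3 and 21.0, 14.0 and 13.1 in the treated samples (37.4 ± 25.3 and 16.05 ± 4.33). The groups did not overlap, but Control 1 and 4'-BR 1 lay next to each other, at 26 and 22 raw counts, and overlapped with total count scaling. Only 4'-BR 3 was under its floor. The log2 fold change of −1.19 (SE 0.49) shrank to −0.45 (SE 0.36) without Control 2.

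Trem1 encodes a receptor on neutrophils and monocytes that amplifies Toll-like receptor signals. It stood at 16.5, 58.3 and 4.39 in Control 1, 2 and 3, against 5.73, 3.11 and 7.50 in 4'-BR 1, 2 and 3. Only Control 1 and Control 2 were above their floors, and Control 3 lay among the treated samples. The means were 26.4 ± 28.3 and 5.45 ± 2.21. The log2 fold change was −2.30 (SE 0.89), and −0.91 (SE 0.65) without Control 2.

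**Figure D2:**
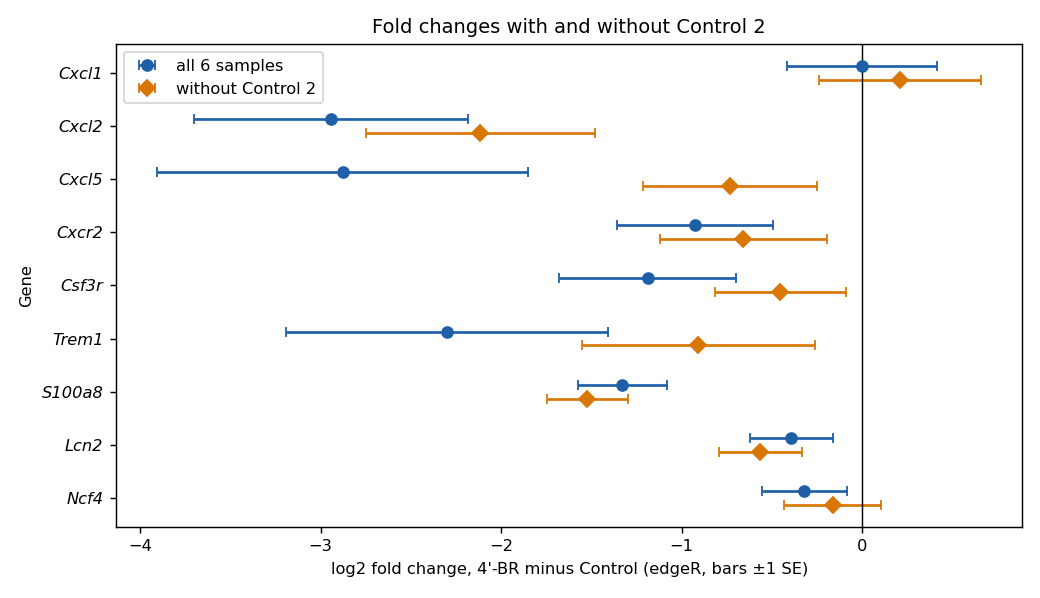
Log2 fold change of each gene, 4'-BR minus Control, from edgeR with all 6 samples (blue circles) and without Control 2 (orange diamonds), bars ±1 SE. Cxcl5, Trem1 and Csf3r move towards 0 without Control 2, while S100a8 moves from −1.33 to −1.52.

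The effector genes were above the floor in all samples. S100a8 stood at 4619, 2764 and 4254 scaled counts in Control 1, 2 and 3 and at 1847, 1135 and 1649 in the 4'-BR samples. All treated samples lay below all Control samples, and Control 2 was the nearest to them. The means were 3879 ± 983 and 1544 ± 367 (n = 3 each), a 2.51-fold difference (log2 fold change −1.33, SE 0.24). Without Control 2, the lowest Control sample, it was −1.52 (SE 0.23) and past the threshold. Leaving out the lowest Control sample widens the difference by itself, so nothing is read from this. It was not past the threshold without Control 1 or any single 4'-BR sample.

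Lcn2, which encodes an iron-withholding protein of neutrophils and epithelium, stood at 295, 180 and 244 in Control 1, 2 and 3, against 212, 191 and 139 in 4'-BR 1, 2 and 3. Control 2 was below 4'-BR 1 and 4'-BR 2, so the groups overlapped (239 ± 57.9 and 181 ± 37.8). The log2 fold change was −0.39 (SE 0.23), and −0.56 (SE 0.23) without Control 2, where the remaining 2 Control samples were above all treated samples. Within each sample, counts of S100a8 over Lcn2 were 15.6, 15.4 and 17.5 in Control 1, 2 and 3 and 8.71, 5.93 and 11.9 in 4'-BR 1, 2 and 3. This ratio, which does not depend on scaling, was higher in every Control sample than in any treated one, and Control 2 did not stand apart in it. Both genes were chosen with this contrast in view, so it is a description that restates their fold changes. Among the other ratios taken, Cxcl2 over Cxcl1 overlapped between groups, at 0.40 in Control 3 and 0.50 in 4'-BR 2. Those of Cxcr2, Trem1 and Ncf4 over Csf3r overlapped too, while Cxcl5 over Cxcl1 did not.

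Ncf4 encodes p40phox, a cytosolic subunit of the phagocyte oxidase that macrophages share with neutrophils. It stood at 82.5, 134 and 117 in Control 1, 2 and 3 and at 100.3, 76.2 and 90.04 in 4'-BR 1, 2 and 3 (111 ± 26.4 and 88.9 ± 12.1). The groups overlapped through Control 1. The log2 fold change was −0.32 (SE 0.24), −0.16 (SE 0.27) without Control 2 and −0.49 without Control 1.

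The groups did not overlap for 3 of the 9 genes, Cxcl2, Csf3r and S100a8, all lower in the treated samples. Over all genes tested 30.5% did not overlap and 17.9% were lower without overlap. Leaving out Control 2 took the median log2 fold change of the 9 genes from −1.19 to −0.66, while that of all genes tested went from −0.04 to 0.01. The 9 genes were chosen with this contrast and their Control 2 levels in view, so nothing is read from the larger shift. Past the threshold without Control 2 there was S100a8 alone among the 9 genes, beside 1.28% of all genes tested. Control 2 was its lowest Control sample, so leaving that sample out favours this call.

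Set against the mean of Control 1 and Control 3, the level in Control 2 was 11.2 times as high for Cxcl5, 5.58 for Trem1, 3.20 for Cxcl2 and 2.92 for Csf3r. Of the 548 genes tested, 10 had a ratio above 2, these 4 among them. The 9 genes were chosen with their Control 2 levels in view, so the ratios are a description. Those of Cxcl5 and Trem1 also rest on a Control sample under its floor, Control 1 for Cxcl5 and Control 3 for Trem1. The median ratio over all genes tested was 1.09. The other ratios were 1.60 for Cxcr2, 1.46 for Cxcl1 and 1.35 for Ncf4. Those of Lcn2 and S100a8, at 0.67 and 0.62, were below 1. The remaining 6 genes with a ratio above 2 were Cd14, Il1rl1, Ccl20, Ccl1, Il1b and Klra2, and Cd14, the lipopolysaccharide co-receptor of myeloid cells, had 3.68. Control 2 was also the sample with the highest total count. The ratios were taken after scaling, and the part of depth in them was not tested.

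**Figure D3:**
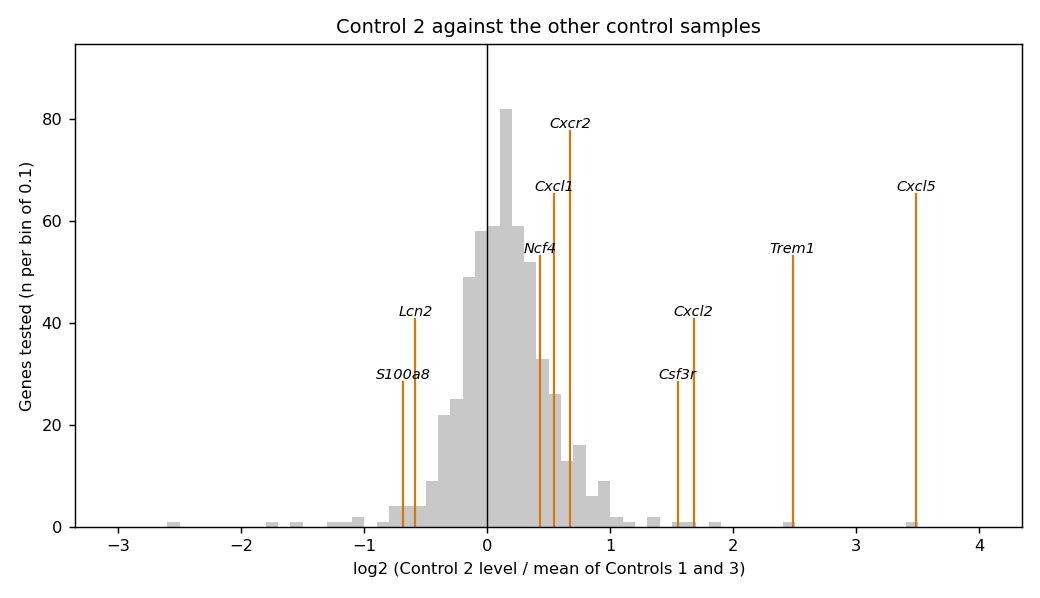
Distribution over the 548 genes tested of the log2 ratio of the Control 2 level to the mean of Control 1 and Control 3 (grey bars, genes per bin of 0.1), with the 9 genes as orange lines whose heights only separate the names. Cxcl5, Trem1, Cxcl2 and Csf3r lie in the upper tail, and S100a8 and Lcn2 in the lower.

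For each gene the 3 most similar profiles on the panel were found as the lowest root mean square difference of centred log2(scaled count + 1) levels over the 6 samples. The gene nearest to Cxcl2 was Il1b, which encodes interleukin-1β, at 0.43, against a median of 1.41 over all candidates, followed by Ccl11 at 0.59. All treated values of Cxcl2 were under the floor, as was that of Il1b in 4'-BR 3, so the treated part of this match rests on background. Nearest to Csf3r were Il1rl1, the interleukin-33 receptor, at 0.21, then Klra2 at 0.27 and Cd14 at 0.27 (median 0.75). Both patterns peaked in Control 2, but Cxcl2 and Il1b were also high in Control 1 where Csf3r was not.

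Cxcr2 was closest to 3 genes of monocyte recruitment, the receptor Ccr2 (0.16) and the chemokines Ccl9 (0.16) and Ccl12 (0.23), with a median of 0.70. All 4 were higher in Control 2 and Control 3 than in Control 1, and lowest in 4'-BR 2. Cxcr2 was under its floor in 4'-BR 2 and 4'-BR 3, so that part of the match rests on background. S100a8 had no profile as near, with Clec4n at 0.34, Irf7 at 0.35 and Ccl8 at 0.35 (median 0.79). Cxcl5 and Trem1 had Cd14 and Nlrp3 among their 3, at 0.72 to 0.92 (medians 1.47 and 1.31). Cxcl5 was under its floor in Control 1, 4'-BR 2 and 4'-BR 3, and Trem1 in Control 3 and every treated sample. Much of these matches therefore rests on background. Low values for genes that vary little mean less, and Ncf4 (Il4ra, 0.08) and Lcn2 (Creb1, 0.18) are of that kind. Among pairs of the 9 genes themselves the smallest difference was 0.27, of Cxcl1 and Ncf4, and the largest 1.56, of Cxcl5 and Lcn2.

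**Figure D4:**
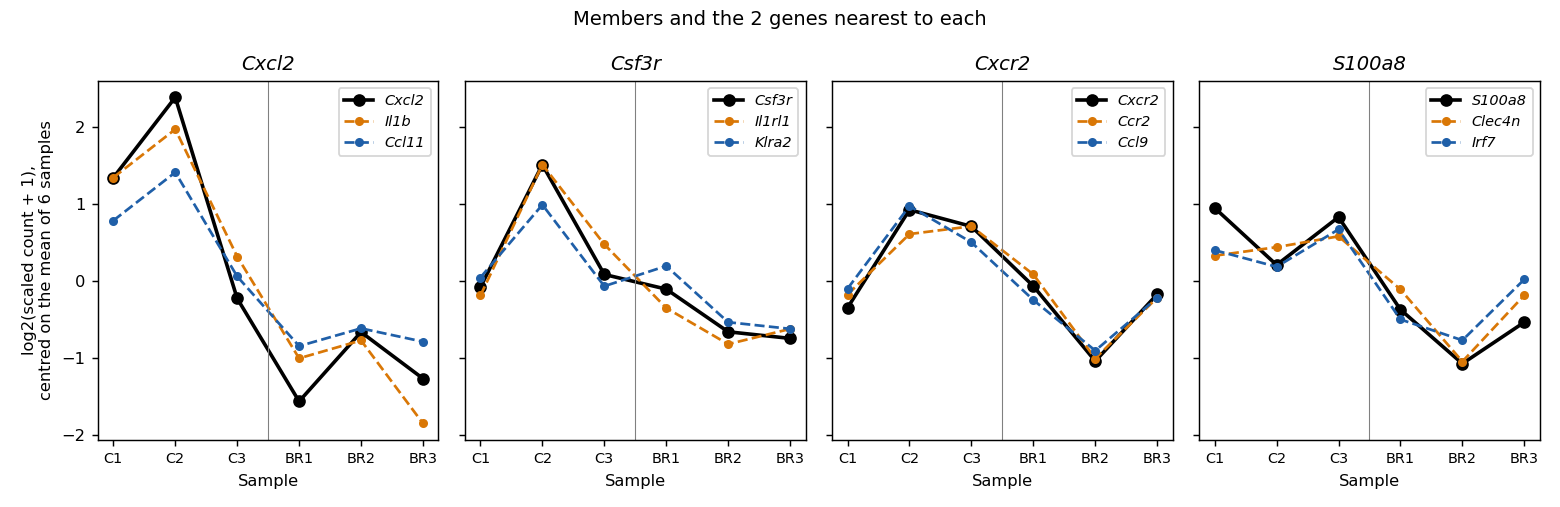
Centred log2(scaled count + 1) over the 6 samples for Cxcl2, Csf3r, Cxcr2 and S100a8 (black) and the 2 genes nearest to each (dashed), with Control left and 4'-BR right of the grey line. Il1b follows Cxcl2 with high values in Control 1 and Control 2, and Il1rl1 shares the Control 2 peak of Csf3r.

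Further genes of neutrophil recruitment and function were taken from a list of 68, of which 49 were on the panel and 26 passed the count minimum. Of these 26, 5 fell in the treated samples and none rose (edgeR, adjusted over all genes tested), with a median log2 fold change of −0.23 against −0.04 for all genes tested. Over the whole panel 5.66% of genes tested fell and 1.28% rose. Of the genes that fell, Il1b had 22, 16 and 6 raw counts in 4'-BR 1, 2 and 3, and Ccr1 had 15, 11 and 11. Both had a mean under 20 there and passed the count minimum through the Control counts. Without Control 2 the count was 2, Il1b and Lyz2, and it was 0 when Control 1 or any single 4'-BR sample was left out. Over all 548 genes tested there were 7 calls (1.28%) without Control 2. Each of the other fits named here called 0 or 1 of them, so the count of 0 is not particular to this list.

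Among inducers and growth factor genes 1 of 6 fell, Il1b, whose product induces CXC chemokines in stromal and epithelial cells. It stood at 111, 172 and 54.1 in Control 1, 2 and 3, against 21.0, 24.9 and 11.3 in 4'-BR 1, 2 and 3 (log2 fold change −2.53, SE 0.46, edgeR adjusted p = 0.0356). The treated samples all lay below the lowest Control sample, and Control 2 was the highest. Only 4'-BR 3 was under its floor. Csf2rb, the shared receptor chain for GM-CSF, interleukin-3 and interleukin-5, was at −0.48 (adjusted p = 0.244). Of the other chemoattractant and receptor genes 1 of 4 fell, Ccr1, a receptor of neutrophils and monocytes (44.6 ± 11.2 and 17.4 ± 3.16, −1.39, SE 0.32, adjusted p = 0.0387). C5ar1, the receptor for the complement fragment C5a, was at −0.79 (adjusted p = 0.182).

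Of 8 adhesion and trafficking genes, 1 fell, Itgam, the CD11b chain of an integrin of neutrophils and macrophages (87.2 ± 13.9 and 40.2 ± 5.65, −1.12, adjusted p = 0.0387). Icam1, its ligand on endothelium and epithelium, was at 0.55 (SE 0.25, adjusted p = 0.213) and at −0.07 with positive control scaling. Of 8 effector and signalling genes, 2 fell. Lyz2, the lysozyme of macrophages and neutrophils, went from 7047 ± 1356 to 3513 ± 790 (−1.004, adjusted p = 0.0387), and Lyn, a Src-family kinase, from 158 ± 29.6 to 86.6 ± 8.05 (−0.86, adjusted p = 0.0387). All 5 genes that fell are also expressed by macrophages.

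**Figure D5:**
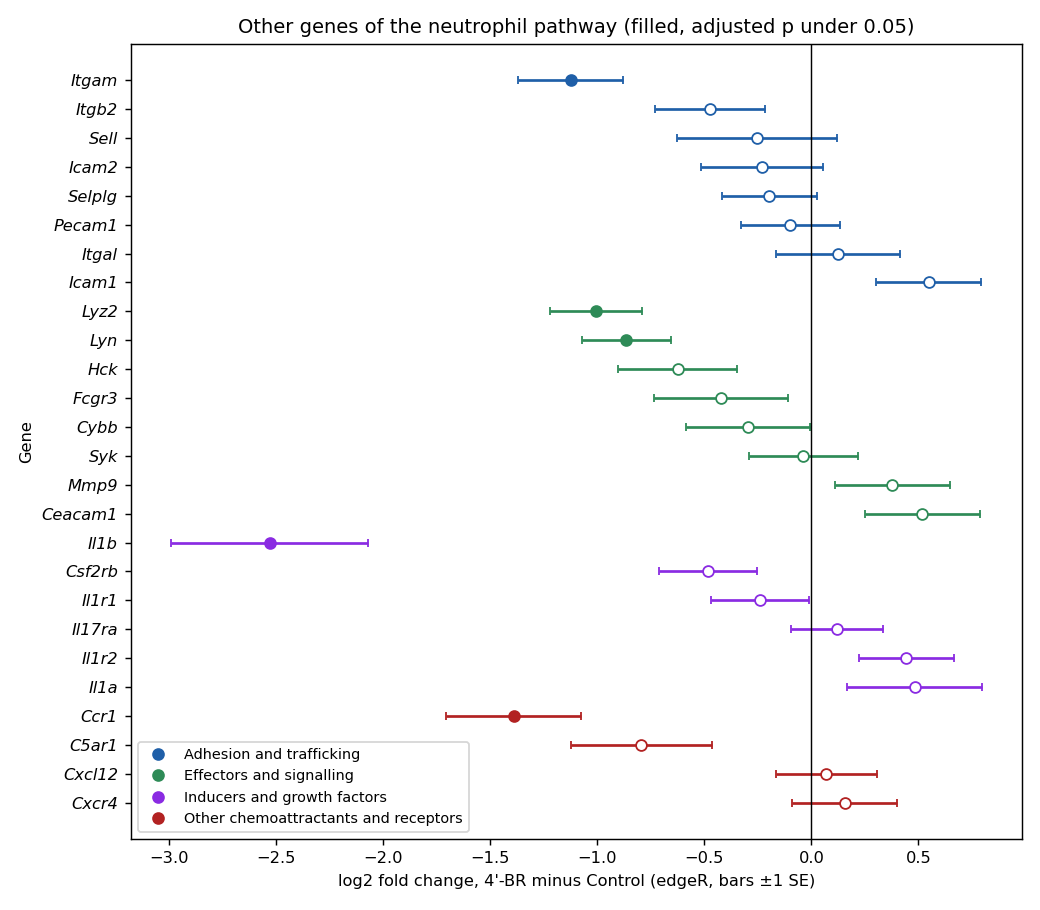
Log2 fold change, 4'-BR minus Control, of the 26 further neutrophil-related genes that passed the count minimum (edgeR, bars ±1 SE), coloured by role and filled where the adjusted p is under 0.05. The 5 filled points, Il1b, Ccr1, Itgam, Lyz2 and Lyn, are all negative.

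The other 23 genes of that list lay under the count minimum, and 10 of them were not above the floor in any sample. None passed in the fit without a minimum (lowest adjusted p = 0.134). They include Csf3, the gene of granulocyte colony-stimulating factor itself, at 4.12, 14.9 and 8.05 in Control 1, 2 and 3 and 0.96, 7.78 and 1.88 in 4'-BR 1, 2 and 3. Cxcl3, a further CXCR2 ligand with the motif shown above, stood at 9.07, 17.8 and 8.05 in the same Control samples, with treated values of 4.78, 4.67 and 3.75. Control 2 was again the highest Control sample for both. Neither gene was above the floor in any treated sample, and Csf3 was under it in Control 1 too, so those values are background. Of the 23, 12 were highest in Control 2 among the Control samples, a share close to the 50.4% over all genes tested. Of the 11 that were above the floor in Control 2, 10 were highest there, though being above that floor itself favours a high level in Control 2. Cxcr1 and Il17a were above the floor in no sample.

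Markers of neutrophils were only partly present. Of 11 on the panel, 6 of which are members, 3 (S100a8, Lcn2 and Ncf4) were above the floor in all samples. Elane and Camp, granule genes transcribed mainly in marrow precursors, were above it in none, Ltf in 1 and Mpo in 2. S100a8 and Lcn2 made up most of the summed marker level. Over the other 9 markers, a subset taken after the values were seen, the sum was 154, 327 and 198 in Control 1, 2 and 3 and 172, 138 and 156 in 4'-BR 1, 2 and 3. Of these 9 markers 4 are members (Ncf4, Csf3r, Trem1 and Cxcr2), so the sum repeats their pattern.

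Markers of other cell types moved with the same comparison. The summed level of 11 macrophage and monocyte markers was 2489 to 3231 in Control samples, highest in Control 2, and 1512 to 1980 in 4'-BR samples, with 3 of 10 tested lower. The 6 fibroblast markers summed to 23234 to 31934 and 10332 to 15346, with 4 lower. The 8 keratinocyte and epithelial markers, all above the floor in every sample, ran the other way, at 6819 to 7175 and 7328 to 8416, with 3 higher. In Control 2 they stood at 1.00 times the mean of the other Control samples, and the macrophage markers at 1.22 times. The 4 mast cell markers summed to 485 to 589 and 298 to 379, with 1 of 3 tested lower. The summed levels of 7 endothelial and 5 T cell markers overlapped between groups, with no gene of either list past the threshold, and none of 4 B cell markers was above the floor in any sample. Of 9 melanocyte markers the panel held S100b and Mcam, both above the floor in all samples and neither past the threshold. The part of these cell types in the levels of the 9 genes was not tested.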

How the data were processed

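Both deposited tables were used. The raw table holds barcode counts per probe as deposited, per the file headers with no scaling, for 750 endogenous, 20 housekeeping, 6 positive and 8 negative probes, where the labels give 730 immune and 40 housekeeping genes. The other table, also deposited by the authors, gives a normalized value per gene (a score), of which all 4620 lay within 1 of the raw count times one factor per sample. The sources used here do not give the software behind either. Groups and replicate numbers came from the sample titles. The labels tie no sample to a mouse, so the spread that the p-values measure is that between these samples, which may be technical.

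Raw counts were fitted with edgeR 4.0.16 in R 4.3.3 (glmQLFit and glmQLFTest, 4'-BR against Control, sample scaling by the geometric mean of the housekeeping probes). A mean of 20 or more raw counts was required, which left 548 genes, tested two-sided, with Benjamini-Hochberg adjustment over them and a threshold of 0.05, and 222 were set aside. The fit was tested on simulated data. Scaled levels are mean ± SD over 3 samples, and the standard error (SE) of a fold change comes from the F statistic. Of the 770 transcript identifiers 746 matched RefSeq, all 9 members among them. Replicates of one group differed by more than counting noise (chi-square per degree of freedom 7.30 to 26.2).

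The members, the lists and the tests were chosen with earlier results of these data known. Named were the 9 members, the listed further genes past the threshold with the 2 of lowest p per role, and the 3 nearest profiles per member; other names were chosen after their values were seen. A further engineered allele of the mice and some of the nearest profiles are not reported here. Alternatives covered scaling, count minimum, background, tool (DESeq2 1.42.0, limma 3.58.1), the series table, replicate block and left-out samples. Depth limits precision for genes near the floor.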

Additional observations from a re-analysis of the deposited data

How the results depend on the processing

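Positive control scaling moved all genes together (median log2 fold change −0.67) and called 244 genes, 8 of the 9 members and 14 further genes, with 5 members not overlapping; it put Cxcl5 at −3.57, Cxcr2 at −1.54, Csf3r at −1.83, Trem1 at −2.94, Lcn2 at −1.0005 and Ncf4 at −0.95, all past the threshold. Calls were 31 lower and 7 higher with housekeeping scaling, 38 and 16 with TMM (54), 37 and 17 after scaling by the median of ratios, 30 and 30 by total count (60 in all, median 0.12), and 243 and 1 by positive controls. Groups did not overlap for 4 members with TMM (Cxcl5 added) and for 2 by total count or after subtraction (Csf3r lost). DESeq2 called 69 (48 and 21). S100a8 alone of the members was called with a minimum of 50 (3 members tested), with background subtracted, with limma and with the series table; Cxcl2 was then not tested, −7.90, −2.33 and −2.34. Subtraction leaves Cxcl2 almost no treated counts, so that value has no meaning as a size. Without single samples the panel gave 0 to 35 calls, the members 0 to 3, the further genes 0 to 4 and non-overlapping members 3 to 6. Calls were 0 without 4'-BR 1 or 4'-BR 2 in edgeR (107 and 116 at an unadjusted p under 0.05), 1 without Control 1 or 4'-BR 3, 7 without Control 2 and 35 without Control 3. Then Cxcl2 ranged from −3.38 to −2.11, S100a8 from −1.52 to −1.15 and Trem1 from −2.79 to −0.91, past the threshold without Control 3. Over all settings 8 members stayed negative, and Cxcl1 ran from −0.61 to 0.21. Control 2 was highest for 7 members under every scaling. Correlations of deviations between Control and 4'-BR samples were −0.08, 0.08 and 0.21 for like numbers 1, 2 and 3, and −0.31 to 0.22 for unlike numbers. So few values cannot settle whether sample numbers pair the groups. The replicate block gave 30 calls with the same 2 members and 3 further genes, without Ccr1 and Lyn.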
